A study of Mus musculus with 6 samples.

Results

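A subset of the Dpp4+ fibroblasts of mouse inguinal white adipose tissue (iWAT), labelled as those with Cxcl13 and Nrcam, was described in single-cell RNA sequencing of stromal vascular cells from which CD45+ immune cells had been removed. Barcodes were taken from the 6 deposited matrices if they held at least 2000 unique molecular identifiers (UMIs, 1 per captured transcript), under 10% mitochondrial UMIs, at least 30 Dcn UMIs per 10000, no UMI of Pecam1, Cdh5 or Ptprc, at least 1 UMI of Pi16 or Dpp4, no UMI of Dmkn, Krtdap or Sbsn, and at least 2 UMIs in all of Cxcl13, Nrcam, Smpd3, Il1r2 and Slc38a4. The rule chose 10594 of 68103 barcodes (15.6%), which were 34.5% of the 30712 fibroblasts with Pi16 or Dpp4. Of the chosen cells, 39.3% held no UMI of Cxcl13 or Nrcam and 12.3% held both, so the label covers part of them, and they are called 5-gene Dpp4+ fibroblasts here. They were set beside the 13007 cells of the Pi16 or Dpp4 gate with at least 2 UMIs of Dmkn, Krtdap and Sbsn (Dmkn Dpp4+ fibroblasts) and the 3996 with no UMI of those 3 genes and 0 or 1 UMI of the 5 genes (remaining gate cells, whose markers were mostly those of preadipocytes, as given with the gene lists).

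The study addressed how aging changes the response of iWAT to cold. C57BL/6 male mice, young (9 weeks) or aged (57 weeks), first lived at 30 °C over 3 weeks, then spent 2 weeks at 30 °C (TN), or were moved to 6 °C for the last 3 days (3D cold) or the last 14 days (14D cold). The study's methods list younger ages at receipt of the mice, by which 9 and 57 weeks are the ages after this housing. There was 1 library per age and temperature, so each age had 3 libraries at different temperatures, and which age came from which supplier is not given in the sources used here. The study's methods say of the stromal vascular cells that animals were pooled only where stated, and name no pooling for these libraries. Differences between ages cannot be told apart from differences between the mice, suppliers or captures of those libraries, and p-values measure the spread between libraries only. The libraries held 88508349, 87368343 and 87219354 UMIs in young mice (TN, 3D cold and 14D cold, the order used throughout) and 68479481, 74590296 and 52068837 in aged mice. The 5-gene Dpp4+ fibroblasts numbered 2111, 2349 and 2478 in young and 1033, 1592 and 1031 in aged libraries, with 22239786, 20257238 and 20031284 UMIs in young and 7959033, 11928432 and 7103391 in aged. Their median depth was 10404, 8256 and 7741 UMIs a cell in young and 7455, 7072 and 6949 in aged, so each aged library was shallower than each young one. Their median mitochondrial share was 1.59%, 2.14% and 2.00% in young and 2.11%, 2.61% and 2.58% in aged libraries. It was higher in the aged library at each temperature, and its part in the results below was not tested. The aged 14D library stood apart, with 38.2% of its barcodes under 2000 UMIs against 7.04% to 11.7% in the other libraries. Across libraries 524 barcode sequences occurred more than once, 12 of them among the 5-gene Dpp4+ fibroblasts.

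Dpp4+ fibroblasts lie in the connective tissue sheaths and septa of fat depots, express the peptidase Dpp4 and the secreted protein Pi16, and are known as multipotent progenitors that can give rise to preadipocytes. CXCL13 is a chemokine that draws B cells through its receptor CXCR5 and is best known from the stroma of lymphoid organs. Nrcam encodes a cell adhesion molecule of the L1 family, Smpd3 a neutral sphingomyelinase that makes ceramide, Il1r2 a decoy receptor that binds interleukin 1 without signalling, and Slc38a4 an amino acid transporter whose gene is imprinted.

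All 5 genes are protein-coding, at the following positions in mm10 (GENCODE vM21): Cxcl13 at chr5:95956951-95961068 on the plus strand, Nrcam at chr12:44328885-44601964 (plus), Smpd3 at chr8:106252548-106337988 (minus), Il1r2 at chr1:40074079-40125231 (plus) and Slc38a4 at chr15:96994820-97055956 (minus). Since UMIs of these genes chose the cells, their values in the cells are a description and carry no test. On the CPM scale, which is the UMIs of a gene relative to all UMIs of the population in that library, Cxcl13 stood at 531, 545 and 462 CPM in young and at 696, 632 and 859 CPM in aged 5-gene Dpp4+ fibroblasts, and the aged libraries were all above the young ones. Nrcam was at 47.9, 41.9 and 44.4 CPM in young and at 25.9, 19.8 and 22.2 CPM in aged libraries, all lower. Smpd3 was at 643, 561 and 544 CPM in young and at 442, 325 and 425 CPM in aged libraries, also without overlap. The decoy receptor gene Il1r2 was at 821, 655 and 842 CPM in young and 689, 517 and 596 CPM in aged libraries, where aged TN lay above young 3D cold. Slc38a4 was at 14.97, 22.7 and 16.4 CPM in young and at 2.89, 4.28 and 3.097 CPM in aged libraries, all far lower.

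**Figure D1:**
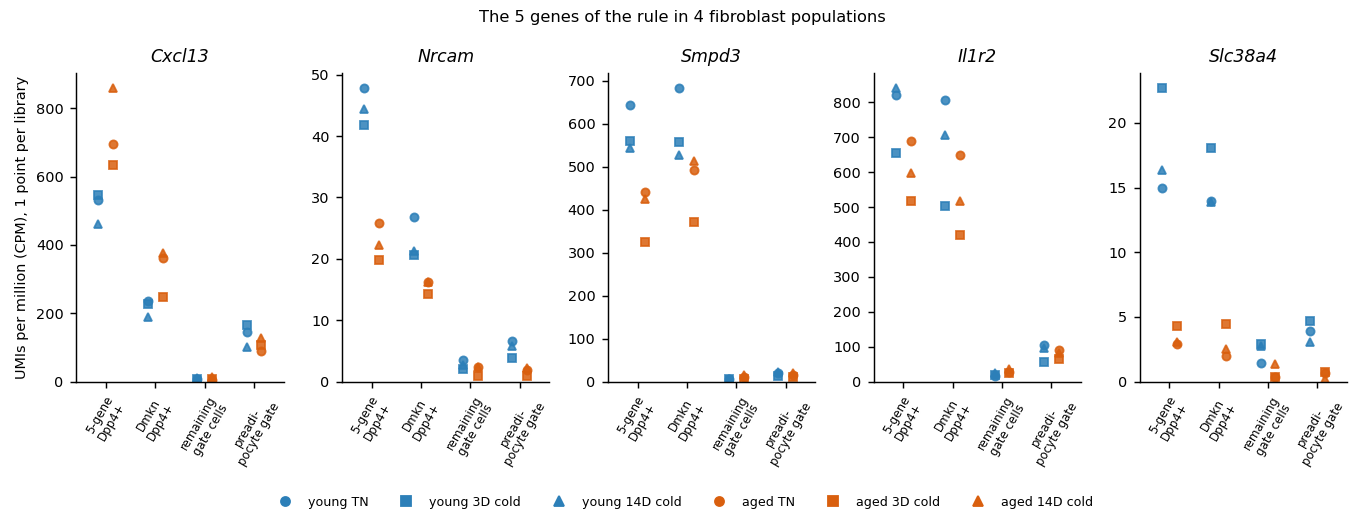
CPM (linear axis from 0) of the 5 genes in 4 fibroblast populations, with 1 point per library, coloured by age and shaped by temperature. Dmkn Dpp4+ fibroblasts reach levels close to those of the 5-gene Dpp4+ fibroblasts for Smpd3, Il1r2 and Slc38a4, and in both populations Nrcam and Slc38a4 are lower in each aged library than in each young one.

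At a common depth of 2000 UMIs a cell, Cxcl13 was detected in 31.7% ± 2.91 (SD, n = 3) of young and 37.1% ± 3.91 (SD, n = 3) of aged 5-gene Dpp4+ fibroblasts, against 0.43% to 1.37% of endothelial cells of the same libraries at that depth. Endothelial cells are given for comparison and are not a clean background, since a few of them held many UMIs (in young 14D cold 1.47% of them held Cxcl13 before thinning, yet their Cxcl13 level was 220 CPM). Nrcam was detected in 8.34% ± 0.913 of young and 4.06% ± 0.372 of aged cells (endothelial cells 0% to 0.295%). Smpd3 was found in 54.6% ± 0.929 and 43.4% ± 3.07 (endothelial 0.324% to 2.96%), and Il1r2 in 67.1% ± 3.46 and 61.4% ± 4.10 (endothelial 0.405% to 1.83%). Slc38a4 reached 3.90% ± 1.03 in young cells, above the endothelial cells of each young library (1.17% to 2.23%). In aged cells it was found in 0.581%, 1.13% and 0.388%, and in endothelial cells of the same libraries in 0.810%, 0.285% and 0.247%, so it was lower than in them at TN and higher at 3D and 14D cold. Before thinning, Cxcl13 was seen in 48.0% to 56.2% and Nrcam in 11.9% to 31.0% of the 5-gene Dpp4+ fibroblasts of a library.

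The 5 genes were spread unevenly over the cells. Of the 10594 cells, 15.2% held UMIs of 1 of the 5 genes, 38.1% of 2, 31.9% of 3, 12.8% of 4 and 2.03% of all 5, and 1054 cells qualified through Il1r2 alone. On unthinned counts, with each aged library shallower than each young one, cells with 4 of the 5 genes made up 15.3% to 17.3% of the young and 5.28% to 7.74% of the aged libraries, and cells with both Cxcl13 and Nrcam 13.4% to 17.7% and 6.09% to 8.91%. Within the gate cells free of Dmkn, Krtdap and Sbsn, thinned to 2000 UMIs, the phi coefficient of co-detection over cells of a library was 0.18 to 0.38 for Smpd3 with Il1r2, 0.14 to 0.23 for Cxcl13 with Smpd3 and 0.034 to 0.089 for Cxcl13 with Nrcam. Of the UMIs of the 5 genes, Cxcl13 supplied 24.2% to 29.9% in young and 37.5% to 45.1% in aged libraries. A single cell held up to 162 Cxcl13 UMIs, while the library means lay between 3.73 and 5.92 UMIs a cell.

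The threshold of 2 UMIs divided a gradient. Libraries had 65 to 188 cells with exactly 2 UMIs of the 5 genes, just inside, and 113 to 362 cells with exactly 1, just outside. Pi16 was at 403 to 773 CPM just inside and 157 to 523 CPM just outside, and Fn1, which encodes fibronectin, at 1264 to 2465 and 574 to 1998 CPM. Col15a1, a collagen gene of preadipocytes, was at 178 to 767 CPM just inside and 286 to 989 CPM just outside. The 5 genes were not confined to the chosen cells, since 82.5% to 96.8% of the Dmkn Dpp4+ fibroblasts of a library also held at least 2 UMIs of them. In cells with at least 2 UMIs of Col15a1, Cxcl14 and Icam1 and none of Pi16 or Dpp4 (the preadipocyte gate), 15.7% to 34.5% did.

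The identity of the cells was described with gene lists that the rule did not use. Since the rule chose cells by Dcn, Pi16, Dpp4 and the 5 genes and against Pecam1, Cdh5 and Ptprc, these levels partly follow from it. Summed over 16 markers of Dpp4+ fibroblasts, the 5-gene cells stood at 10839 to 12178 CPM in the 6 libraries and the remaining gate cells at 2218 to 3676 CPM, with Fn1 the most abundant marker. Over 13 preadipocyte markers the order was the other way around, with 1961 to 2671 CPM in the 5-gene cells, chiefly Lpl, and 8872 to 10157 CPM in the remaining cells. At 2000 UMIs a cell, Pi16 was seen in 26.0% to 50.3% and Dpp4 in 5.28% to 18.9% of the remaining cells, so they entered the gate on few UMIs and are not called Dpp4+ fibroblasts. Markers of other cell types were low. The 6 epithelial genes summed to at most 0.809 CPM, the 6 lymphocyte genes to at most 1.69 CPM (Cd79a), the 11 macrophage and immune genes to 3.39 to 15.1 CPM (Cd74 the most abundant in aged 14D cold, the highest library) and the 6 mesothelial genes to 1.43 to 10.6 CPM (Krt19), with Msln and Muc16 at 0 in all 6 libraries. Endothelial markers summed to 308 to 393 CPM, of which Ramp2, a partner of the calcitonin-like receptor, gave most, smooth muscle and pericyte markers to 122 to 317 CPM (Acta2), Schwann cell markers to 66.1 to 81.1 CPM (Gpm6b in 5 of 6 libraries) and adipocyte markers to 84.96 to 115.7 CPM (Scd1). Globin and other red blood cell genes summed to 3.14 to 87.5 CPM in 5 libraries and to 524 CPM in aged 14D cold, and the part of such RNA in the results below was not tested.

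A smaller share of the fibroblasts with Pi16 or Dpp4 met the rule in aged mice. The share counts cells by the genes of the rule, of which Slc38a4, Nrcam, Smpd3 and Il1r2 were lower and Dmkn and Krtdap higher in the aged gate, so it partly restates those levels and is given as a description with no test. With each cell thinned to 2000 UMIs and the rule applied anew, the 5-gene cells were 45.7%, 40.9% and 38.7% of the fibroblasts with Pi16 or Dpp4 in young libraries and 31.6%, 27.7% and 23.8% in aged libraries. All 3 aged libraries were below all 3 young ones, and in each age the share was lowest at 14D cold. The means were 41.8% ± 3.57 and 27.7% ± 3.90 (SD, n = 3), a difference of -14.1 percentage points. The condition of no Dmkn, Krtdap or Sbsn UMI was also read from thinned counts, so some Dmkn Dpp4+ fibroblasts could pass it. After thinning, 33.9% of young and 56.2% of aged Dmkn Dpp4+ fibroblasts held Dmkn (means, n = 3). For Krtdap these were 22.4% and 38.8%, and for Sbsn 78.3% and 77.7%. How far this enters the difference in share was not tested. Exact binomial 95% intervals of single libraries, which cover counting error only, were 44.2% to 47.2% for young TN and 22.5% to 25.2% for aged 14D cold. On unthinned counts the shares were 40.1%, 40.7% and 34.0% in young and 34.7%, 31.5% and 23.7% in aged libraries, which overlapped (-8.34 points). Without the condition of no Dmkn, Krtdap or Sbsn UMI the shares were 67.8% ± 5.75 and 59.2% ± 5.05 (SD, n = 3), a difference of -8.59 points, and the libraries of the ages overlapped here too. With Cxcl13 and Nrcam alone, at least 1 UMI, 19.1% ± 1.40 of young and 16.1% ± 0.974 of aged gate cells qualified (SD, n = 3), a difference of -3.00 points.

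**Figure D2:**
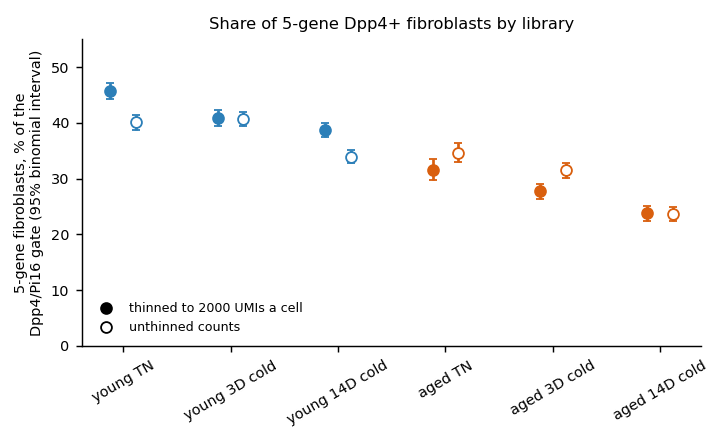
Percentage of the fibroblasts with Pi16 or Dpp4 that met the 5-gene rule in each library, with exact binomial 95% intervals, after thinning to 2000 UMIs a cell (filled) and on unthinned counts (open). Thinned shares run from 38.7% to 45.7% in young and from 23.8% to 31.6% in aged libraries.

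To test the 5 genes by age without choosing cells by them, UMIs were summed over all 30712 fibroblasts with Pi16 or Dpp4, a comparison added after the data had been seen. The edgeR fit called 2643 of 13838 genes (19.1%) at an adjusted p under 0.05. Slc38a4 fell from 14.6 ± 2.05 to 2.86 ± 0.899 normalised CPM (SD, n = 3), 5.09-fold lower in aged mice (log2 -2.35, SE 0.11, edgeR adjusted p = 2.55e-06). Nrcam fell from 30.2 ± 4.01 to 16.5 ± 1.68 normalised CPM (log2 -0.87, SE 0.059, edgeR adjusted p = 1.85e-05). Both calls held in all 10 alternatives. The changes of the other genes were smaller. Smpd3 fell by 0.43 on the log2 scale (SE 0.083, edgeR adjusted p = 0.0065) and Il1r2 by 0.40 (SE 0.064, edgeR adjusted p = 0.0027), although the Il1r2 libraries of the ages overlapped, and both calls were lost without the temperature term. Cxcl13 rose by 0.38 (SE 0.11, edgeR adjusted p = 0.034), from 323 ± 31.4 to 423 ± 67.0 normalised CPM, but the call was lost under DESeq2, without the temperature term, and when either 14D library was left out, with log2 values of 0.19 to 0.54 and adjusted p up to 0.277 over the alternatives. Dmkn (log2 1.39, SE 0.061) and Krtdap (log2 1.42, SE 0.052), which mark the population set apart by the rule, rose in the same fit, and the third gene of that population, Sbsn, rose by 0.31 with overlapping libraries, a call lost without the temperature term.

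Within the 5-gene Dpp4+ fibroblasts, UMIs were summed per library and age was tested with temperature as a term, after the 14 genes of the rule and the mitochondrial genes were set aside. Of 12367 genes tested, 1818 differed between ages at an edgeR adjusted p under 0.05 (14.7%), 883 higher (7.14%) and 935 lower (7.56%) in aged mice, and for 3005 genes (24.3%) the 3 young and 3 aged libraries were fully separated. The median change over all genes was 0.0017 on the log2 scale. The count depended on the thermoneutral libraries, at 809 without young TN and 870 without aged TN. It was 854 under DESeq2 and 617 without the temperature term.

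Among the rises were a lipid transfer protein, secreted glycoproteins, a prostaglandin transporter and a tetraspanin. Pltp, the phospholipid transfer protein, stood at 43.8, 34.5 and 46.0 normalised CPM in young and at 223, 266 and 276 in aged libraries. Each aged library was several times above each young one, and the rise of 6.17-fold (log2 2.63, SE 0.096, edgeR adjusted p = 8.79e-09) was the largest of the 10 named rises. Cd109, a membrane protein that binds TGF-beta and its receptor, was at 9.20, 7.06 and 7.76 normalised CPM in young and 54.0, 43.4 and 48.5 in aged libraries, again far apart (log2 2.60, SE 0.080, edgeR adjusted p = 2.24e-09). Myoc, which encodes the secreted protein myocilin, rose from 79.5 ± 13.4 to 432 ± 69.8 normalised CPM (SD, n = 3; log2 2.44, SE 0.12). Nov, a matricellular protein of the CCN family, rose from 10.1 ± 2.12 to 39.1 ± 13.4 (log2 1.92, SE 0.12). The prostaglandin transporter Slco2a1, the lysosome-associated glycoprotein Gpnmb, Ndrg1, Snhg11 and the tetraspanin Cd9 rose by 1.50 to 1.65 on the log2 scale. Cd9 stood at 117 ± 7.42 and 331 ± 9.78 normalised CPM. Ctla2a (log2 2.59, SE 0.13) also rose, but it has a near-identical copy, Ctla2b, with which reads may be shared.

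**Figure D3:**
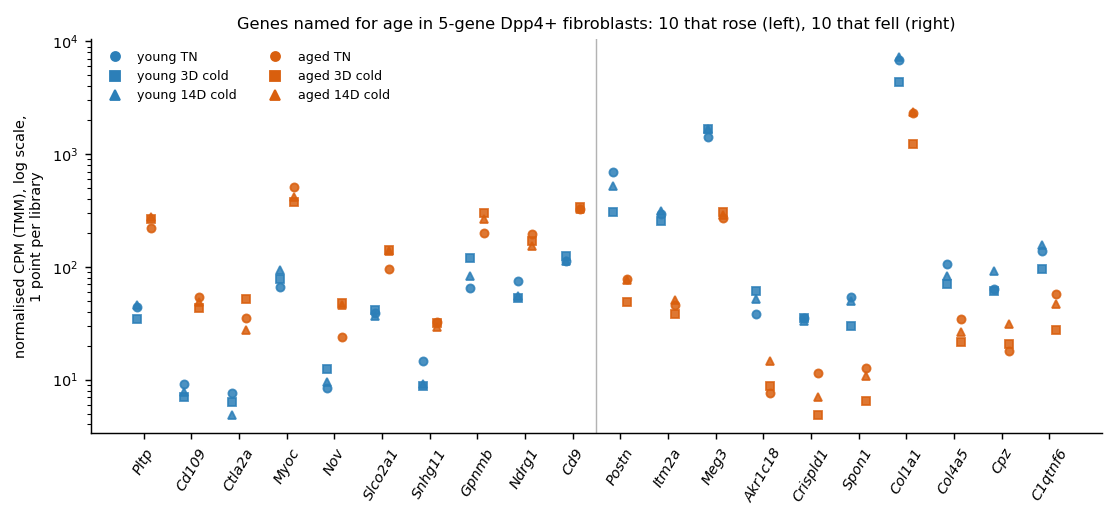
Normalised CPM (log axis) of the 10 genes named for the largest rise and the 10 named for the largest fall with age among genes of at least 20 CPM, with 1 point per library. For all 20 genes the 3 aged libraries lie on one side of the 3 young libraries at every temperature.

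Several matrix genes were among the named falls. Postn, which encodes periostin, was at 700.5, 304 and 526 normalised CPM in young and 78.0, 48.9 and 76.2 in aged libraries. It was lower in every aged library, by 7.29-fold (log2 -2.87, SE 0.093, edgeR adjusted p = 3.17e-09), and at both ages lowest at 3D cold. Col1a1, a chain of type I collagen, was at 6868, 4364 and 7220 normalised CPM in young and 2334, 1223 and 2366 in aged libraries. The pattern was the same, with no overlap and the lowest value at 3D cold (3.18-fold lower in aged, log2 -1.67, SE 0.084, edgeR adjusted p = 1.18e-07). Spon1 (F-spondin, log2 -2.16, SE 0.085), the basement membrane collagen gene Col4a5 (log2 -1.65, SE 0.071), the carboxypeptidase gene Cpz (log2 -1.64, SE 0.081) and C1qtnf6 (log2 -1.58, SE 0.097) fell too. The membrane protein gene Itm2a fell from 285 ± 29.9 to 45.1 ± 6.70 normalised CPM (log2 -2.67, SE 0.067, edgeR adjusted p = 5.68e-10). Akr1c18, which encodes a steroid dehydrogenase that inactivates progesterone, fell from 50.4 ± 11.7 to 10.3 ± 3.68 (log2 -2.34, SE 0.14), and Crispld1 from 34.5 ± 0.917 to 7.76 ± 3.33 (log2 -2.21, SE 0.17). Gpc3, a glypican on the cell surface, fell by 1.40 (SE 0.095). All 21 genes named for age by their size or from the study kept their call in all 16 alternatives.

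The counts by list below stand beside 7.14% of all genes called higher and 7.56% called lower. By list, 14 of 17 collagen genes were lower in aged 5-gene Dpp4+ fibroblasts and none was higher, with a median of -0.79 on the log2 scale beside 0.0017 over all genes. The fibrillar chains Col3a1 (2.96-fold lower) and Col1a2 (2.30-fold) followed Col1a1 within the list, which does not hold Col4a5, the type VI chain Col6a3 was 1.80-fold lower and the basement membrane chain Col4a1 1.41-fold lower. Col8a1 (log2 -0.073), Col14a1 (-0.18) and Col18a1 (-0.18) did not pass the test. Of 16 tested genes for folding, crosslinking and processing of collagen, 14 were lower and none higher (median log2 -0.46), among them Sparc, a collagen-binding glycoprotein (2.76-fold lower), the collagen chaperone Serpinh1 (1.62-fold, a call lost without the temperature term at an adjusted p of 0.0501), and the crosslinking enzyme genes Lox, Loxl1, Loxl2 and Loxl3. The prolyl hydroxylase subunit P4hb (log2 -0.18) and Plod3 (-0.18) did not pass. Of 18 tested matricellular and elastic fibre genes, 8 were lower and none higher, with elastin (Eln) 2.29-fold and Fbln1 2.06-fold lower, while Tnxb (log2 0.051) and Fbln5 (0.097) did not pass. Among 9 small leucine-rich proteoglycans, which bind collagen fibrils, 5 were lower, including Aspn (2.52-fold) and Lum (1.59-fold), and none was higher, but Lum and Bgn lost their calls without the temperature term (adjusted p of 0.1004 and 0.170 in edgeR). Matrix proteases and their inhibitors went both ways, with 5 higher and 3 lower of 14. The inhibitors Timp2 (log2 0.31) and Timp3 (0.40), the membrane protease Mmp14 (0.37) and cathepsin K (Ctsk, 0.56) rose, and the gelatinase Mmp2 fell (-0.39). Timp3 lost its call without the temperature term (edgeR adjusted p = 0.077).

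**Figure D4:**
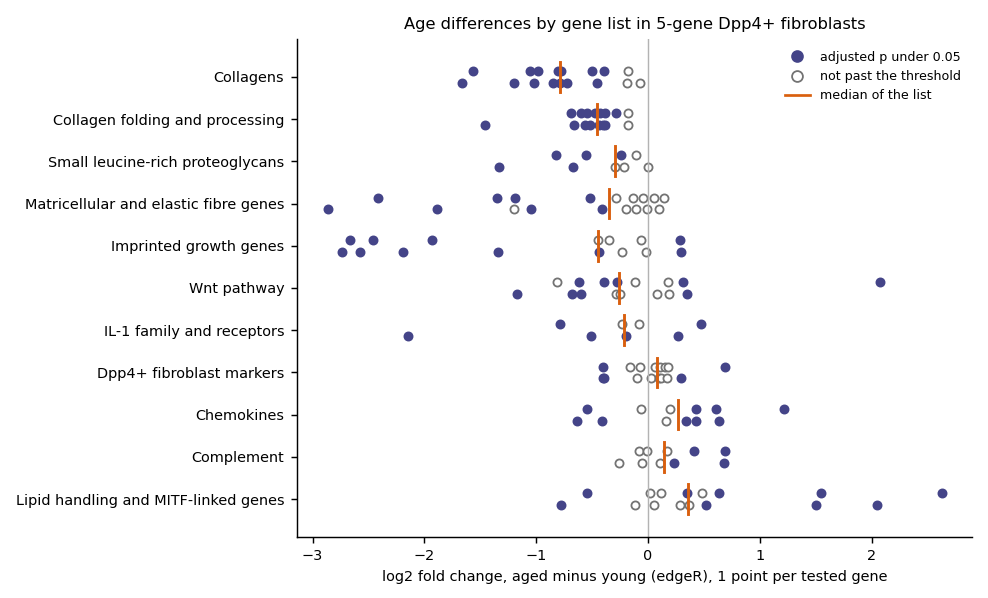
Log2 fold change (aged minus young, edgeR) of each tested gene in 11 gene lists, filled where the adjusted p was under 0.05, with the median of the list as a bar. Nearly all collagen and collagen-processing genes lie left of 0, and some imprinted genes lie far to the left, with Meg3 at -2.46.

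Imprinted genes that act on growth were a further group with falls. Of 15 tested, 8 were lower and 2 higher, with a median of -0.44. The maternally expressed RNA Meg3 stood at 1422, 1686 and 1666 normalised CPM in young and 269.6, 308 and 287 in aged libraries, far apart and with little spread (5.51-fold lower, log2 -2.46, SE 0.069, edgeR adjusted p = 1.12e-09). Mirg, from the same imprinted cluster, was 4.57-fold lower, Peg3 3.83-fold and Plagl1 2.53-fold. H19 (6.496 ± 2.07 to 1.03 ± 0.704 normalised CPM) and Mest (9.13 ± 2.12 to 1.596 ± 0.953) fell from low levels. The growth inhibitor Cdkn1c (log2 0.30) and Impact (0.29) rose, but Cdkn1c lost its call in 5 and Impact in 7 of 16 alternatives. Slc38a4, used by the rule, is imprinted as well.

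Lists around the rule genes held rises and falls, beside 14.7% of all genes called (7.14% higher, 7.56% lower). Of 12 tested genes of the chemokine list, 6 rose and 3 fell, with a median of 0.27. The rises were Cxcl2 (2.33-fold), Ccl2 (log2 0.63), Ccl8 (0.61), Ccl11 (1.35-fold), Cxcl12 (1.35-fold) and Cxcl1 (log2 0.34), which attract neutrophils, monocytes, eosinophils and lymphocytes, and the falls Cxcl9, Cxcl10 and Cxcl16. Cxcl1 and Cxcl9 each lost the call in 6 and Ccl2 in 4 of 16 alternatives, and Cxcl9 turned to 0.13 with the rule applied to thinned counts. Cxcl10, Cxcl12 and Ccl8 lost theirs without the temperature term and Cxcl16 with equal numbers of thinned cells. Of the 7 tested genes of the CXCL13 axis and of stromal organizer cells, Relb (log2 0.27) and Il7 (1.25) rose and the lymphotoxin receptor gene Ltbr (-0.31) fell. Relb lost its call in 11 and Ltbr in 8 of 16 alternatives, and Il7 was not followed through them. In the IL-1 family, 2 of 8 rose and 4 fell, with a median of -0.22. The interleukin 18 receptor gene Il18r1 fell from 20.5 ± 7.05 to 4.71 ± 2.87 normalised CPM (4.42-fold, log2 -2.14, SE 0.15, edgeR adjusted p = 1.39e-06). The co-receptor gene Il1rap fell 1.72-fold and Il18 by 0.51 on the log2 scale, while Il6 rose 1.39-fold and the signalling receptor gene Il1r1 by 0.27. Il6 lost its call in 2 and Il1r1 in 6 of 16 alternatives, and Il1rl2, another of the falls, in 10.

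Of 11 tested L1 family members and partners, 2 rose and 3 fell, again beside 14.7% of all genes called. The semaphorin receptor Nrp2 rose 2.97-fold (6.38 ± 1.18 to 18.98 ± 1.70 normalised CPM), and its relative Nrp1 (log2 0.039) did not pass. The ligand Sema3a fell 2.70-fold, the anchoring protein Ank3 by 0.98 on the log2 scale (lost in 3 of 15 alternatives) and Nfasc from 1.88 to 0.508 normalised CPM. For 21 sphingomyelin and ceramide genes, 4 rose and none fell, a share of calls near the 14.7% over all genes. Cers4, a ceramide synthase, rose 1.77-fold, and Ugcg, Sgpl1 and Asah1 rose by 0.23 to 0.39 but lost their calls in 3, 4 and 8 of 16 alternatives. Among 17 amino acid transporters 3 rose and 4 fell, with the taurine transporter Slc6a6 1.95-fold higher, the arginine transporter Slc7a2 higher from a low level (0.978 to 5.09 normalised CPM) and Slc38a10 1.44-fold lower. Of the others counted, Slc1a5 lost its call in 7 and Slc38a2 in 5 of 16 alternatives, and Slc7a8 in 1 of 15.

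In the Wnt pathway 3 of 16 tested genes rose and 6 fell. The secreted modulator Sfrp2 fell from 777 ± 128 to 344 ± 47.1 normalised CPM (2.25-fold), Wnt5a by 0.68 and the receptor gene Fzd4 by 0.62 on the log2 scale. Sfrp1 rose by 0.35 (SE 0.069), Dkk3 from 0.859 to 3.66 normalised CPM, and Wnt10b by 0.31, a call lost in 6 of 16 alternatives. Of 22 BMP and TGF-beta genes 6 rose and 5 fell, with the ligand Tgfb2 1.77-fold higher and the ligand Bmp7 1.32-fold lower, while Tgfbr1 lost its call in 5 and Fstl1 in 1 of 16 alternatives. Complement genes showed 4 rises and no fall among 10, among them the regulator Cd55 (1.61-fold) and the components C4b (1.33-fold) and C1s1 (log2 0.24, lost in 6 of 16 alternatives). In the list of lipid handling and MITF-linked genes, 7 of 16 rose and 2 fell. Besides Pltp, Gpnmb and Cd9, the rises were Mlana (4.13-fold), Lgals3 (1.55-fold), the cholesterol exporter Abca1 (1.44-fold) and Plin2 (log2 0.35), while the lipase gene Lpl fell 1.72-fold and Cd36 by 0.55 on the log2 scale, which turned to 0.13 with equal numbers of thinned cells and to 0.40 with the rule applied to thinned counts. C4b, Abca1, Plin2 and Cd36 lost their calls without the temperature term (highest edgeR adjusted p 0.080, 0.115 and 0.119 for the first 3). Pltp, Gpnmb, Cd9, Meg3, Itm2a, Gpc3 and Postn were named because the study picked them from these libraries, so they are no independent evidence of direction.

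Markers of Dpp4+ fibroblasts went both ways with age in these cells. Of 16 markers, beside 14.7% of all genes called, 2 rose (Cd55 and Efemp1, which lost its call in 4 of 16 alternatives) and 3 fell (Wnt2, Bmp7 and Uchl1, by 0.39 to 0.40 on the log2 scale), with a median of 0.079. Anxa3 (log2 -0.10), Sema3c (0.11), Pcolce2 (0.15) and Fn1 (-0.16) did not pass. Pi16 and Dpp4 chose the cells and carry no test. In the 5-gene cells Pi16 was at 2815 ± 442 CPM in young and 1636 ± 181 CPM in aged libraries (SD, n = 3), without overlap. Dpp4 was at 380 ± 57.0 and 344 ± 30.6 CPM, with overlap. Preadipocyte markers moved in both directions, with 3 of 12 higher and 5 lower, Col15a1 by 2.08-fold. Col15a1 kept its call in all 16 alternatives, at log2 values of -1.24 to -0.49, while Icam1, a rise, lost its call in 6. Immediate early genes, which rise during dissociation, had 3 higher (Fosl2, Junb and Hspa1b) and 1 lower (Jun) of 14, with a median of -0.040. Junb lost its call in 6 and Jun in 3 of 16 alternatives, and Hspa1b has a near-identical copy, Hspa1a. Interferon-stimulated genes had 3 lower of 13, Ifi27l2a by 2.03-fold. The cell cycle inhibitor Cdkn2a had 0, 1 and 1 UMIs in young and 18, 35 and 15 UMIs in aged libraries, although aged libraries held fewer cells (edgeR adjusted p = 1.57e-05, a call that 15 of 15 alternatives kept). The proliferation gene Top2a had 108, 28 and 65 UMIs in young and 8, 7 and 6 in aged libraries (edgeR adjusted p = 0.0011), a call that 4 of 15 alternatives lost. Over the alternatives its log2 value ran from -2.15 to -0.14, with edgeR adjusted p up to 0.869.

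Fewer genes were called for temperature than for age. An F test over the 3 temperatures with age as a term called 645 of 12705 genes (5.08%, edgeR adjusted p under 0.05). The count rested on the libraries, at 92 without young TN, 74 without aged TN, 1115 when aged 3D cold was left out and 1400 for aged 14D cold, and without the age term it was 0 at the adjusted threshold, with 739 genes at an unadjusted p under 0.05. The fatty acid carrier gene Fabp4 was at 207, 342 and 393 normalised CPM in young and 188, 468 and 561 in aged libraries, higher at both cold times than at TN at each age (log2 1.23 at 14D, edgeR adjusted p = 0.00062). The fatty acid receptor gene Cd36 was at 20.4, 28.0 and 46.6 in young and 9.27, 21.3 and 36.5 in aged libraries (log2 1.43 at 14D, edgeR adjusted p = 0.00054). Both are also abundant in endothelial cells and adipocytes, and at 14D the medians of the endothelial (0.52) and adipocyte (1.06) marker lists were above 0. The part of RNA from those cells was not tested. Apod, a lipid-binding lipocalin, fell at 14D, from 475 and 697 normalised CPM at TN to 262 and 348 (log2 -0.93, edgeR adjusted p = 0.00014). Lsmem1 (log2 -1.85), Gm26802 (-1.22) and the desaturase gene Scd2 (-0.92) also fell at 14D, and Mgp (1.35) rose. Hbb-bs, a globin gene, varied from 1.63 to 275 normalised CPM with the peak in aged 14D cold. None of these 8 genes kept its call in every alternative, since none passed without the age term.

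The temperature counts by list stand beside 5.08% of all genes called, and were not followed through the alternatives under which the whole count fell to 92, 74 or 0. Of 17 collagen genes 15 passed the temperature test, and all 15 had a negative log2 value at 3D against TN, with Col1a1 at -0.79 on the log2 scale at 3D and 0.046 at 14D against TN, Col3a1 at -1.07 and -0.041 and Col1a2 at -0.71 and -0.049. Sparc (-0.85 and 0.0055) and Postn (-0.98 and -0.26) showed the same order. In cholesterol synthesis, 8 of 12 genes passed. Fdft1 was at -1.11 at 3D and -0.24 at 14D, and Idi1 at -0.72 and -0.030. Circadian clock genes also differed, with 6 of 13 called, and the time of day of collection is not given in the sources used here. Of the 16 Dpp4+ fibroblast markers, 3 passed.

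The age effect was then compared with that in the other cells of the gate, in a fit with library as a block. Against the Dmkn Dpp4+ fibroblasts it differed for 136 of 12886 genes (1.06%), 76 more positive and 60 more negative in the 5-gene cells, and for 40 of them the age effects had opposite signs. The clearest case was Akr1c18, which fell from 51.4 ± 12.05 to 10.498 ± 3.73 normalised CPM in 5-gene cells but stood at 165 ± 29.4 and 141 ± 27.0 in Dmkn cells (SD, n = 3; difference of log2 changes -2.09, SE 0.095, edgeR adjusted p = 4.59e-09). Clic5, an intracellular chloride channel protein, rose from 2.36 ± 0.429 to 29.8 ± 3.12 in 5-gene and from 15.7 ± 2.92 to 57.5 ± 8.23 in Dmkn cells (difference 1.78, SE 0.11, edgeR adjusted p = 2.93e-07). The Clic5 call was lost with equal numbers of cells thinned to 2000 UMIs (edgeR adjusted p = 0.106). Its difference ran from 1.22 to 1.91 over the 16 alternatives. Duox1, a hydrogen peroxide-producing oxidase, and its maturation factor Duoxa1 rose more in 5-gene cells as well, by 0.78 (SE 0.086) and 0.73 (SE 0.16), although Duoxa1 lost the call in 7 of 16 alternatives. Meg3 fell further in 5-gene cells (1624 ± 154 to 295 ± 19.4) than in Dmkn cells (2265 ± 158 to 652 ± 12.4), by -0.66 (SE 0.050, edgeR adjusted p = 3.04e-06). Postn, Itm2a and Gpc3 fell less in 5-gene cells, by 0.75, 0.44 and 0.42. Postn lost its call with equal numbers of cells thinned to 2000 UMIs (edgeR adjusted p = 0.221). Its difference was as low as 0.38 over the 16 alternatives. Of the 21 genes named for age, 11 differed in this comparison.

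Against the remaining gate cells, 119 of 11866 genes differed (1.00%), 22 more positive and 97 more negative in the 5-gene cells, and 55 had opposite signs of the age effect. With the rule applied to thinned counts 105 differed, with the split turned to 72 more positive and 33 more negative. The count was 31 when aged 3D cold was left out, 46 for aged 14D cold and 73 for young 14D cold. Pltp rose more in 5-gene cells (41.4 ± 6.03 to 256 ± 28.0 normalised CPM) than in the remaining cells (147 ± 30.8 to 292 ± 77.2), by 1.65 (SE 0.11, edgeR adjusted p = 5.17e-06). Col1a1 fell further in 5-gene cells, from 6149 ± 1550 to 1979 ± 652, than in the remaining cells, from 5655 ± 1050 to 3021 ± 923 (difference -0.73, SE 0.12, edgeR adjusted p = 0.0084), and Postn and C1qtnf6 did so by -1.05 and -0.63. Sema3e, Chst1 and Ackr2, a semaphorin, a sulfotransferase and a chemokine-scavenging receptor, had a more positive age effect in the remaining cells, where they were at 2.25 to 3.70 normalised CPM in young mice, and their differences of -1.70, -1.49 and -1.52 were lost in 6, 5 and 2 of 16 alternatives. The immunoglobulin genes Igkc and Ighm differed by -5.41 and -5.20, from 1 library, as aged 14D cold held 2050 Igkc UMIs in the remaining cells and the other libraries 0 to 14. The remaining cells themselves held more RNA of Dpp4+ fibroblast markers in each aged library (summed 3516, 3586 and 3676 CPM) than in each young one (2218, 2576 and 2605 CPM), and their Dpp4 level was 41.5 ± 15.9 CPM in young and 83.3 ± 2.09 in aged libraries (SD, n = 3). Sema3e and Chst1 were also higher in Dmkn than in 5-gene cells, at median log2 ratios, 5-gene over Dmkn, of -1.26 and -1.44. The part of this in the differences was not tested. Of the 21 genes named for age, 7 differed in this comparison.

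**Figure D5:**
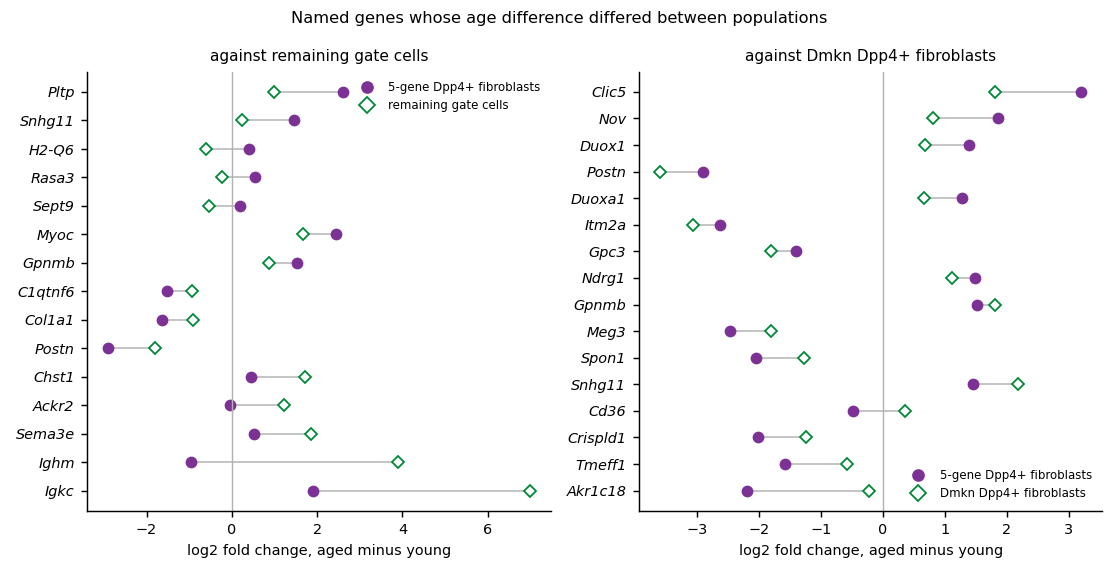
Log2 fold change with age of the named genes whose age effect differed, in the 5-gene Dpp4+ fibroblasts (filled circles) and in the remaining gate cells (left) or the Dmkn Dpp4+ fibroblasts (right), both as open diamonds. On the right Akr1c18 has the longest line, and on the left Igkc and Ighm, which rest on the aged 14D library.

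For most genes named here the level in the 5-gene cells lay between those of the Dmkn and the remaining cells, described without a test since the cells were chosen by expression. The genes named against the Dmkn cells and in the next paragraph were picked after their values had been seen. Of 5825 genes with at least 20 CPM in either population, 3217 had the same sign in all 6 libraries against the remaining cells. Among the highest were Edn1, which encodes the vasoconstrictor endothelin 1 (115 and 10.8 mean CPM, median log2 ratio 3.84 over libraries, range 2.20 to 3.99), Sema3e (median log2 ratio 3.72), Gap43 (3.36), Bmp7 (3.30), the retinoic acid-making enzyme gene Aldh1a3 (3.23), Efhd1 (2.99), Anxa3 (2.98), Wnt10b (2.84) and Fn1 (3977 and 615 mean CPM, 2.72). By the median, all 9 were lower than in the Dmkn cells, at log2 ratios of -0.44 for Edn1, -1.26 for Sema3e, -1.31 for Bmp7 and -0.097 for Fn1. Among the lowest were the laminin gene Lamc3 (-3.11), Olfm2 (-2.96), Cd300lg (-2.92), Fbln7 (-2.86) and Col15a1 (144 and 836 mean CPM, -2.55). Against the Dmkn cells, 2948 of 5755 genes kept 1 sign. Angiotensinogen (Agt, median log2 ratio 2.32), Wisp2 (2.22), Gas6 (2.01), Cyp1b1 (1.84), Igfbp3 (1.75), Apoe (1.73) and Icam1 (1.67) were higher in the 5-gene cells. By the median against the remaining cells, Apoe (-1.50), Icam1 (-1.37), Cyp1b1 (-1.29), Gas6 (-0.35) and Agt (-0.21) were lower, while Igfbp3 (1.50) and Wisp2 (0.59) were higher. Il34, a ligand of the macrophage receptor CSF1R, was lower (1.88 and 36.2 mean CPM, -3.68), as were Bmp3 (-3.26), the integrin gene Itgb7 (-2.83), Akr1c18 (-2.66), the prostaglandin synthase gene Ptgs1 (-2.59) and the claudin gene Cldn3 (-2.45). Pi16 and Dpp4 themselves were lower in 5-gene than in Dmkn cells, at median log2 ratios of -0.96 and -0.44.

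The 5-gene cells also varied among themselves. Cells with a Cxcl13 UMI after thinning numbered 606, 811 and 786 in young and 359, 556 and 429 in aged libraries. In all 6 libraries they had more Igfbp3, an IGF-binding protein (588 and 255 mean CPM, median log2 ratio 1.18, range 1.00 to 1.86), Fbln1 (1.11), Gpc3 (0.95) and Dkk2 (0.74) than the cells without one. Thy1, a surface glycoprotein of many fibroblasts, was lower in them (54.3 and 129 mean CPM, -1.13, range -1.81 to -1.03), as were Nov (-0.93), Stmn4 (-0.85), Gdf10 (-0.85), Crispld1 (-0.79) and Jag1 (-0.76). Gpc3, Fbln1 and Dkk2, higher in the cells with Cxcl13, were lower in aged mice (Dkk2 lost its call without the temperature term), and Nov, lower in those cells, was higher in aged mice, while the Cxcl13 level was higher in aged mice.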

How the data were processed

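Single-cell libraries were made with the 10x 3' v3.1 chemistry from live (DAPI-), CD45-depleted stromal vascular cells, 6 libraries in all. The authors made the deposited UMI counts with Cell Ranger (3.1.0 in the matrix headers) against mm10, and the deposited barcodes are those called as cells. The study's later Seurat filters and integration are not in these counts. The members, lists and tests were chosen with earlier results of these data known. No doublet caller was run, and an alternative leaves out the 10% deepest cells. Thinning drew 2000 UMIs a cell without replacement.

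UMIs were summed per library and population with Python 3.11.15 and tested in R 4.3.3 with edgeR 4.0.16 (quasi-likelihood F test, TMM factors, filterByExpr, Benjamini-Hochberg, threshold 0.05). Age was fitted with temperature (2 residual degrees of freedom), and age by population with library as a block (4). An SE is the absolute log2 change divided by the square root of F. DESeq2 1.42.0 was an alternative, with other factors, filters, rules and left-out libraries. The tests were checked on simulated counts. Log2 ratios of levels use CPM plus 1. Genes were named by size past the threshold. For age these were the 10 largest rises and falls with at least 20 mean CPM and the same direction at each temperature. For 14D cold they were 4 each, with the same direction at each age. For differences between populations they were 5 each, with at least 20 CPM in 1 of the populations, and 7 genes of the study were added. Of these, 21 were named for age. The authors' clusters and single-nucleus data were not used here.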

Additional observations from a re-analysis of the deposited data

Results flagged for a closer look

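The age effect of 31 named gene and population pairs differed between the 5-gene Dpp4+ fibroblasts and another population of the Pi16 or Dpp4 gate in edgeR's test of the difference itself (adjusted p under 0.05, 3 libraries per age), given here as the log2 change in the 5-gene cells minus that in the other population.

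Against the remaining gate cells, the difference was 1.65 for Pltp, 0.73 for Myoc, 1.25 for Snhg11, 0.68 for Gpnmb, 1.07 for H2-Q6, 0.80 for Rasa3 and 0.76 for Sept9. It was -1.05 for Postn, -0.73 for Col1a1, -0.63 for C1qtnf6, -1.70 for Sema3e, -1.52 for Ackr2 and -1.49 for Chst1. H2-Q6 belongs to a family of near-identical genes that can share reads. For Igkc (-5.41) and Ighm (-5.20) the difference reversed without aged 14D cold, where the remaining cells held 2050 Igkc UMIs and the 5-gene cells 142. Of the 10 genes named for this comparison, Pltp alone kept its call in all 16 alternatives.

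Against the Dmkn Dpp4+ fibroblasts, the difference was 1.11 for Nov, 0.39 for Ndrg1, 0.75 for Postn, 0.44 for Itm2a, 0.42 for Gpc3, 1.78 for Clic5, 0.78 for Duox1 and 0.73 for Duoxa1. It was -0.78 for Snhg11, -0.31 for Gpnmb, -0.66 for Meg3, -2.09 for Akr1c18, -0.94 for Crispld1, -0.70 for Spon1, -1.70 for Tmeff1 and -0.84 for Cd36. Of the 10 genes named for this comparison, Nov, Duox1 and Akr1c18 kept their calls in all 16 alternatives.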

How the results depend on the processing

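Among the 107 genes called for age and followed through the alternatives, 67 kept their call in all of them. Other genes named from the lists, such as Il7, Dkk3, Nfasc, Fzd4, Uchl1 and Lgals3, were not followed. The count of genes by age (1818) was 854 with DESeq2, 617 without the temperature term, 739 with equal numbers of cells thinned to 2000 UMIs and 809 to 1741 with 1 library left out (809 without young TN, 870 without aged TN). The count by temperature (645) was 332 with DESeq2, 1555 with no filter on low counts, 286 with equal cells, 0 without the age term (739 at an unadjusted p under 0.05 in edgeR) and 74 to 1400 with 1 library left out. Differences of the age effect from the remaining gate cells (119) numbered 398 with no filter, 393 with population by temperature terms, 68 with equal cells, 241 with at least 3 UMIs of the 5 genes, 244 without Smpd3 in the rule and 31 to 137 with 1 library left out. With the rule applied to thinned counts they numbered 105, of which 72 were higher and 33 lower in the 5-gene cells, against 22 and 97. Differences from the Dmkn Dpp4+ fibroblasts (136) numbered 71 with DESeq2, 393 with no filter, 254 with population by temperature terms, 35 with equal cells and 64 to 155 with 1 library left out (64 without young 14D cold or aged 3D cold, 77 without aged 14D cold, 90 without young 3D cold). Over all fibroblasts with Pi16 or Dpp4, a population added after seeing the data, the age count (2643) was 1679 with DESeq2 and 737 without the temperature term. The difference in share (-14.1 percentage points) was -8.34 on unthinned counts, -3.00 with Cxcl13 and Nrcam alone, -8.59 without the condition on Dmkn, Krtdap and Sbsn, and -16.0 to -12.1 with 1 library left out. The age effect reversed for Cxcl9 (0.13) and Cd36 (0.40) with the rule applied to thinned counts and for Cd36 (0.13) with equal cells. The differences of Igkc and Ighm from the remaining cells reversed to 2.01 and 1.12 without aged 14D cold, the highest values with 1 library left out (the lowest were -5.58 and -5.41). The cause was not tested. The age test with temperature as a term pairs the young and the aged library of each temperature, and the count without that term (617) is the unpaired one. With 1 library per age and temperature, an interaction of age with temperature could not be tested, and depth limits what can be seen of sparse genes such as Slc38a4, most of all in aged 14D cold, where 38.2% of all barcodes had under 2000 UMIs and could not be chosen.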
